A study of Mus musculus with 4 samples.

Results

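The potassium channel genes are the 94 rows of the deposited count table whose symbol starts with Kcn, of 23874 rows in all. They were taken by that name alone, and each row had an Ensembl identifier and a position in the GRCm38 build of the mouse genome. They encode pore-forming subunits (77 genes), the accessory subunits that bind them (16 genes) and Kcnrg, a regulator that forms no pore. Polyadenylated RNA was sequenced from engineered neural tissue of the mouse. Neurospheres, the free-floating balls in which neural stem cells grow, were set in Matrigel, a basement membrane gel, under DMEM/F12 medium with N2, B27 and 20 ng/ml bFGF, a growth factor that keeps such cells dividing. Tissue of the EF group received daily electric field stimulation (150 mV/mm, 30 min) over 3 days, and its culture went on for 7 days more. The cell type is labelled Neutral Stem Cells, read here as neural stem cells. The noEF group was the unstimulated tissue, in the same gel and medium. The series design speaks of cell suspensions as controls instead, so the identity of noEF rests on the sample labels. No label gives a mouse strain, an age or a genotype. The labels state 3 replicates per group and 2 libraries per group were analysed here.

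A potassium channel lets potassium ions cross the cell membrane and little else, which draws the membrane potential towards the potassium equilibrium. Voltage-gated channels open on depolarization and end action potentials. Two-pore channels carry the resting leak. Inward rectifiers pass inward current more readily than outward current and let astrocytes take up the potassium that active neurons release. Calcium-activated channels tie the membrane potential to intracellular calcium. Neural progenitors and glia carry many of these channels, so their transcripts are not specific to neurons.

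The 5 channel genes that differed between the groups are described below together with the abundant ones, and the coding sequence around the ion selectivity filter shows what these otherwise different genes share. The filter is the narrow part of the pore, classically encoded as a threonine codon, 1 more codon, and the codons for glycine, tyrosine and glycine. Each window below is 42 bases of coding strand from GENCODE M21 on GRCm38, 5′ to 3′, taken from the longest coding sequence of the gene. Capitals mark the last 3 codons of the motif, and positions count from the first base of the start codon. Sequences of the called genes Kcnn2 and Kcnj10 are not shown.
Kcnk1, first pore, 334 to 375: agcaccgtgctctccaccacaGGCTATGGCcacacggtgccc
Kcnk1, second pore, 658 to 699: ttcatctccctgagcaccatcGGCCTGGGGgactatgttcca
Kcnk2, first pore, 454 to 495: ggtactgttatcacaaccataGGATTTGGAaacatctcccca
Kcnk2, second pore, 781 to 822: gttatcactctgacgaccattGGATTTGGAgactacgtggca
Kcnj16, 376 to 417: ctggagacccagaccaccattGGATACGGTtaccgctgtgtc
Kcnv1, 1168 to 1209: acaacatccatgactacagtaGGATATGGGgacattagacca
Kcna6, 1249 to 1290: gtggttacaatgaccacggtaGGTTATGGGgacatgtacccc
Kcnma1, 1039 to 1080: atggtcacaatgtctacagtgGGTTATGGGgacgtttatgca
Kcnd3, 1084 to 1125: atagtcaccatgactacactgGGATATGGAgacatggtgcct

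The two-pore genes Kcnk1 and Kcnk2 each had the motif 2 times, while the other genes shown had it 1 time. The motif searched, in frame and on the coding strand only, was the codon ACN, any codon, GGN, then TAN, TTN or CTN, and GGN. These 3 forms exclude one another at a given place. It was found in 66 of the 78 genes outside the accessory class and in 0 of the 16 accessory genes, against 2.01% of the 21642 coding genes of the table. A wider form let any codon precede NTN, GGN, TAN or TTN, and GGN, as in the SK and EAG families, and can match the same place as the narrower ones. With it added, 77 of the 78 had it, against 6.53% of all coding genes. The remaining gene was Kcnrg. The second-pore windows of Kcnk1 and Kcnk2 differed at 14 of 42 bases.

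Most of the potassium channel transcript came from few genes. Levels between genes are compared per length, in RPKM, which is counts scaled to library size and divided by exon length. Of the 94 genes, 43 reached a mean of 1 CPM (counts scaled to library size only) over the 4 libraries, 16 reached 10 CPM and 22 had no count in any library. A sum of 0 counts allows a level of up to 0.0219 CPM (3 counts of the summed library totals, counting error only). The 10 genes with the highest level held 83.0% of the summed mean RPKM of all 94. By the mean over all 4 libraries they were, in order, Kcnip3 (53.9 RPKM), Kcnj16 (32.6), Kcnk1 (27.9), Kcnmb4 (25.5), Kcnd3 (19.5), Kcnc1 (12.4), Kcnk2 (10.9), Kcnd2 (10.4), Kcnj10 (9.70) and Kcna6 (5.22 RPKM). The order differed between the groups where a gene differed between them. Kcnk1 was above Kcnj16 in EF (33.9 against 30.2 RPKM) and below Kcnmb4 in noEF (22 against 24.5 RPKM). Kcnk2 was above Kcnc1 in noEF (13.5 against 12.1 RPKM) and below Kcnd2 in EF (8.29 against 10.6 RPKM). The libraries of Kcnk2, Kcnd2 and Kcnj10 overlap, which the plot of levels by gene shows. Genes of different classes thus shared the top of the order, and 2 of the first 4 encode accessory proteins rather than pores.

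**Figure D1:**
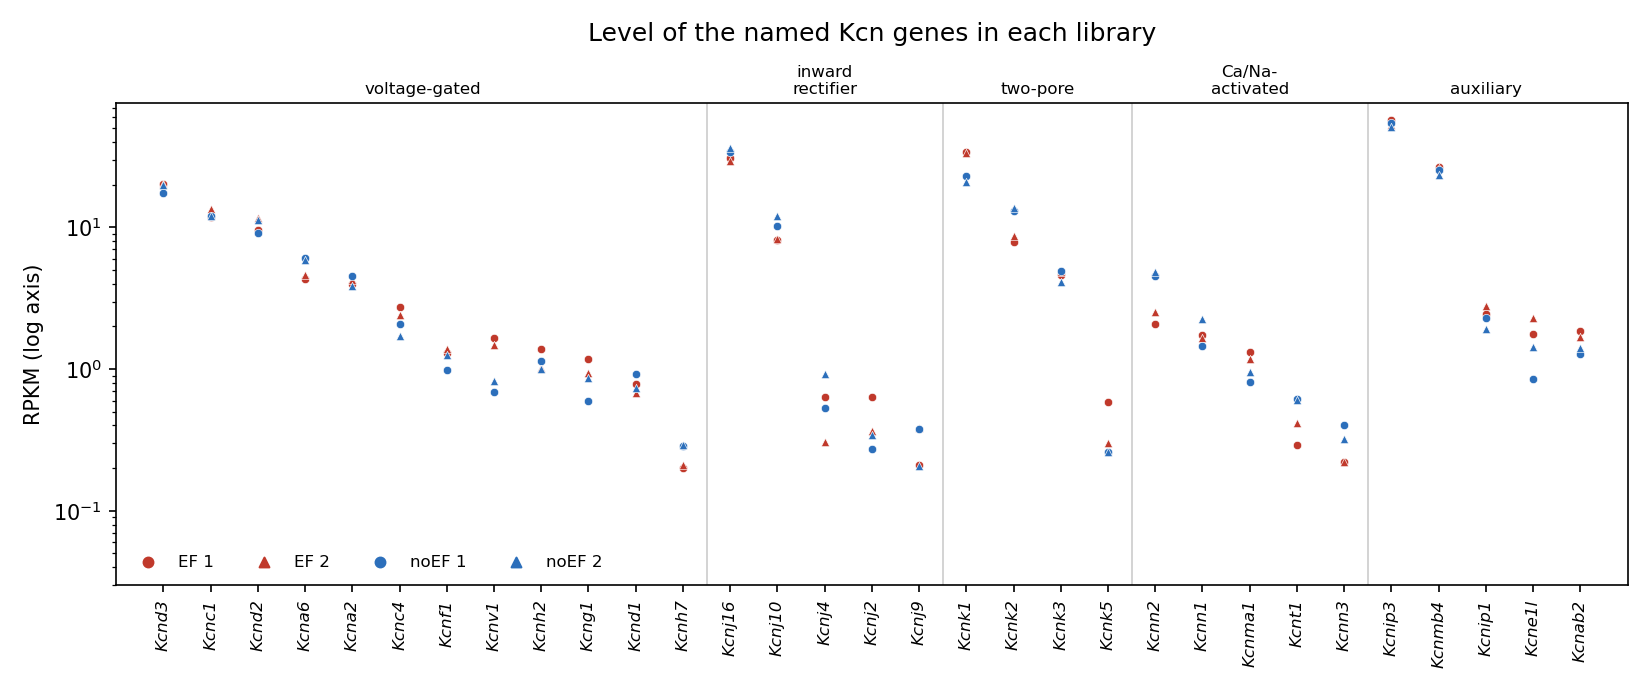
Level of 31 of the 43 Kcn genes with a mean of at least 1 CPM (those named in the text), in RPKM on a log axis, grouped by class along the horizontal axis; each point is 1 library (circles replicate 1, triangles replicate 2, red EF, blue noEF). Kcnip3, Kcnj16, Kcnk1 and Kcnmb4 lie at the top, and the red and blue points separate most visibly for Kcnk1, Kcnk2, Kcnn2 and Kcnv1.

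Summed per length over its members, each class kept its rank in all 4 libraries except the pair of two-pore channels and inward rectifiers. The accessory class held the largest share of the summed level, 36.0% and 34.8% in EF and 35.1% and 32.6% in noEF. Summed as CPM, without exon length, the voltage-gated class was the largest instead, at 39.2% to 43.0% against 23.2% to 26.8% for the accessory class. The voltage-gated class without Kv7 held 24.9% and 26.4% in EF and 24.1% and 25.7% in noEF, and these ranges overlap. The inward rectifiers held 16.2% and 15.7% in EF and 18.8% and 20.5% in noEF. The two-pore channels held 19.2% and 19.3% in EF and 17.3% and 16.2% in noEF. Per length, the inward rectifiers thus ranked below the two-pore channels in both EF libraries and above them in both noEF libraries. The higher two-pore share in EF rested on Kcnk1, at 34.3 and 33.4 RPKM in EF and 23.0 and 21.1 RPKM in noEF. The sums of that class were 48.8 and 48.5 RPKM in EF and 42.7 and 40.3 RPKM in noEF. Kcnk2, its next gene, went the other way (7.89 and 8.70 RPKM in EF, 13.1 and 13.8 RPKM in noEF). The swap of the classes was present only per length. As CPM the inward rectifiers held 13.7% to 17.3% and the two-pore channels 11.1% to 11.8%. The former were above in all 4 libraries and the two-pore groups overlapped. The calcium- and sodium-activated class was small, at 2.30% and 2.50% in EF and 3.28% and 3.75% in noEF, without overlap. This gap rested on Kcnn2, at 2.08 and 2.51 RPKM in EF and 4.53 and 4.85 RPKM in noEF. The class sums were 5.87 and 6.28 RPKM in EF and 8.13 and 9.33 RPKM in noEF. Of its 7 tested genes, 5 had a log2 fold change below 0 and 2, among them Kcnma1, above it. Kv7 genes held 1.13% to 1.27% in every library. No test stands behind these shares, since shares within a library depend on each other. The summed level of all 94 genes was 253 ± 2.40 RPKM in EF and 248 ± 1.19 RPKM in noEF (SD, n = 2 each).

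**Figure D2:**
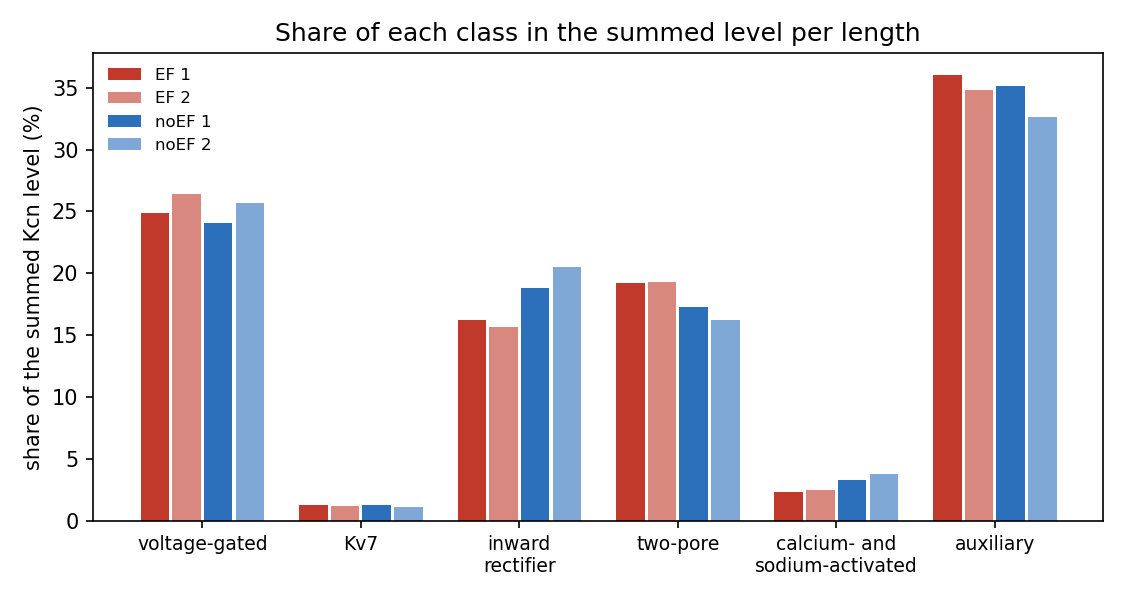
Share of each class of Kcn genes in the summed RPKM of all Kcn genes of a library, in percent, with 1 bar per library (red EF, blue noEF, paler bars replicate 2). The two-pore bars, most of them Kcnk1, are higher in EF (19.2% and 19.3%) and the inward rectifier bars higher in noEF (18.8% and 20.5%). The class with Kcnrg alone, about 0.1%, is not drawn.

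Setting EF against noEF shows which channel transcripts differed 7 days after the stimulation ended. Kcnk1 and Kcnv1 were higher in EF, and Kcnn2, Kcnk2 and Kcnj10 were lower. These were the 5 genes called at an adjusted p under 0.05 among the 60 Kcn genes that passed the filter on low counts, tested with the edgeR quasi-likelihood F test and adjusted by Benjamini-Hochberg over 14263 genes. The share was 8.33%, and 8.82% of all tested genes were called (3.83% higher and 4.99% lower), so potassium channel genes were called about as often as other genes. The median log2 fold change of the 60 genes was 0.05 and that of all tested genes 0.01. Both EF libraries lay above both noEF libraries in 14 of the 60 (23.3%, against 27.6% of all tested genes) and below them in 16 (26.7%, against 26.8%). For both directions joined, the share of all tested genes was 54.4%. The 34 genes that did not pass the filter had at most 20 counts in a library. Whether each library is a culture of its own is not stated. The p-values therefore rest on the spread between these samples alone, which may be technical.

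Precision followed the level. The median standard error of the log2 fold change was 0.12 for the 16 genes of at least 10 CPM and 0.60 for the 44 tested genes below it. Of the 16, 4 were called (25.0%), where 11.9% of all tested genes of at least 10 CPM were. Of the 44, only Kcnv1 was called. Over all tested genes, too, 1103 of the 1258 calls were at 10 CPM or more, a level that 9254 of the 14263 genes reached.

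**Figure D3:**
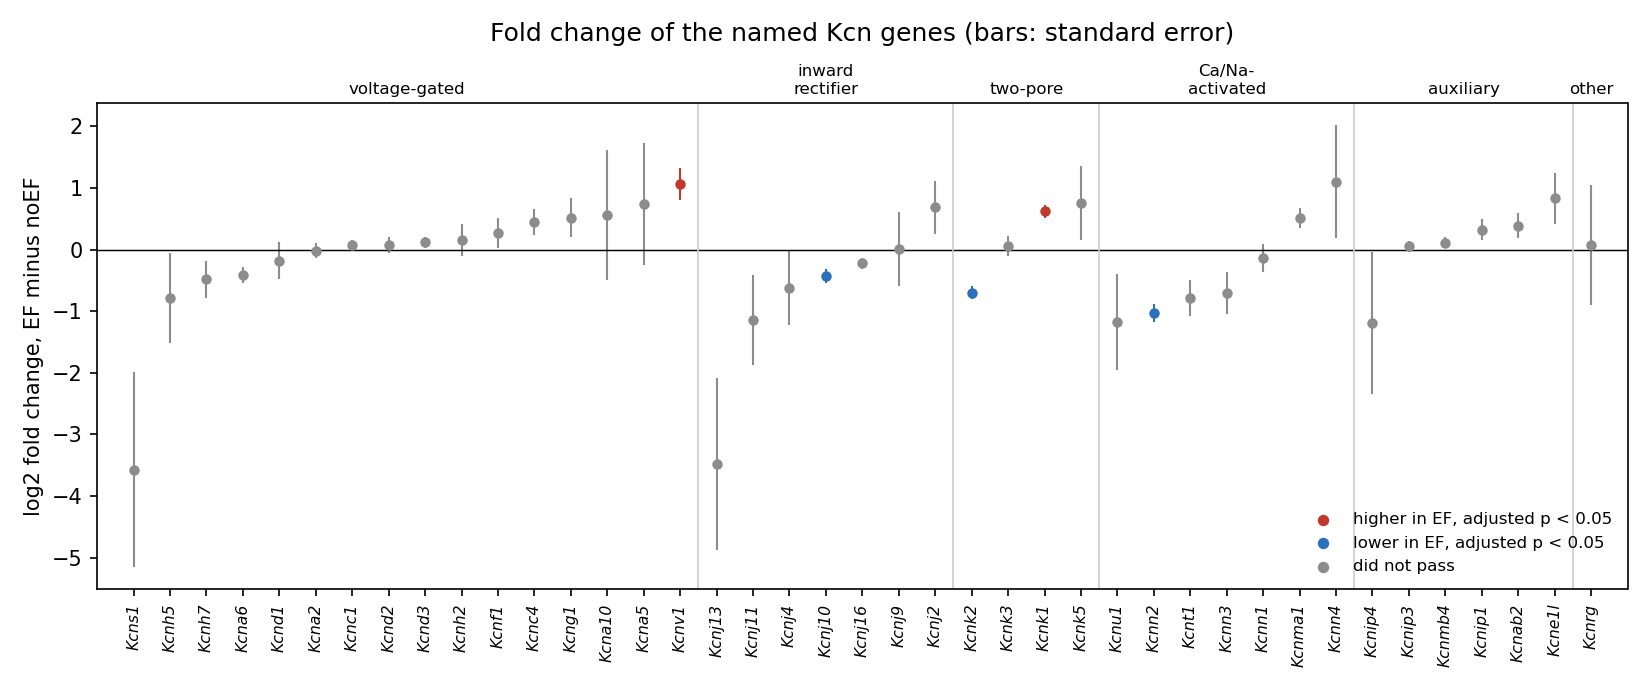
Log2 fold change (EF minus noEF) of the tested Kcn genes named in the text (41 of 60), by class, with the standard error as bars; red points passed as higher and blue points as lower in EF, and grey points did not pass. The 5 called genes lie within 1.06 of 0 and have short bars, whereas Kcns1 and Kcnj13, the most distant points, have the long bars of genes with few counts.

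Two-pore channels held 2 of the 5 calls, in opposite directions. Kcnk1 encodes TWIK-1, a leak channel found in astrocytes and neurons (ENSMUSG00000033998, chromosome 8, 125995170 to 126030685, plus strand). Its level was 76.6 and 74.7 CPM in the EF libraries and 51.3 and 47.1 CPM in the noEF libraries. The groups were far apart relative to their spread, at 75.7 ± 1.33 against 49.2 ± 2.98 CPM (SD, n = 2 each), a 1.54-fold rise (log2 fold change 0.62, SE 0.10, edgeR adjusted p = 0.00166). Kcnk2 encodes TREK-1, a leak channel opened by membrane stretch and arachidonic acid (ENSMUSG00000037624, chromosome 1, 189207930 to 189402273, minus strand). The EF libraries had 39.0 and 43.0 CPM and the noEF libraries 65.0 and 68.3 CPM. Both EF libraries were lower, at 41.0 ± 2.80 against 66.6 ± 2.35 CPM (SD, n = 2 each), a 1.62-fold fall (log2 fold change -0.70, SE 0.11, edgeR adjusted p = 0.00108). The level of Kcnk1 per length was 4.34 and 3.85 times that of Kcnk2 in EF and 1.75 and 1.53 times in noEF.

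The third abundant leak channel gene, Kcnk3, which encodes the acid-sensitive TASK-1, had 18.3 and 19.3 CPM in EF and 19.6 and 16.4 CPM in noEF. Its groups overlapped, and its log2 fold change of 0.06 (SE 0.16) did not pass. Kcnk5, the largest difference of the family on the log2 scale, was near 1 CPM and at 0.76 (SE 0.60, edgeR adjusted p = 0.489). Of 14 two-pore genes 7 were tested, with 1 higher and 1 lower, and 4 had no count. Of all tested genes 3.83% were higher and 4.99% lower.

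Among the calcium- and sodium-activated channels, Kcnn2 was lower in EF and 0 were higher, of 7 tested genes out of 8. Of all tested genes 4.99% were lower and 3.83% higher. Kcnn2 encodes SK2, a small-conductance channel that calmodulin opens when calcium rises and that carries part of the afterhyperpolarization that follows action potentials (ENSMUSG00000054477, chromosome 18, 45268860 to 45686024, plus strand). Its level was 15.5 and 18.8 CPM in EF and 33.9 and 36.2 CPM in noEF. Both EF libraries were well below both noEF libraries, at 17.2 ± 2.28 against 35 ± 1.65 CPM (SD, n = 2 each), a 2.04-fold fall (log2 fold change -1.03, SE 0.14, edgeR adjusted p = 5.06e-04).

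The other SK genes did not pass. Kcnn3 had 2.33 and 2.32 CPM in EF and 4.24 and 3.36 CPM in noEF (log2 fold change -0.71, SE 0.34, edgeR adjusted p = 0.227). Both EF libraries were lower, but few counts lie behind them. Kcnn1 overlapped between the groups (-0.14, SE 0.23), and Kcnn4, the intermediate-conductance channel, had a mean below 1 CPM and was at 1.1 (SE 0.92).

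Kcnma1, the pore of the large-conductance BK channel, had 22.6 and 20.1 CPM in EF and 13.8 and 16.1 CPM in noEF. The groups did not overlap, but its log2 fold change of 0.51 (SE 0.16) missed the threshold (edgeR adjusted p = 0.0576). It passed in 4 of 13 alternatives, among them library totals in place of TMM scaling (0.60, edgeR adjusted p = 0.0230) and the fit without noEF replicate 2 (0.62, edgeR adjusted p = 0.0346). Kcnmb4, the beta subunit that accompanies BK channels in brain, was at 88.0 ± 0.430 CPM with the field and 81.3 ± 5.26 CPM without it (SD, n = 2 each; log2 fold change 0.11, SE 0.09) and did not pass. Per length it was 20.0 to 31.4 times as abundant as Kcnma1 in each library. This ratio depends on exon length, which was 3324 bases for Kcnmb4 and 16976 for Kcnma1. The gap in CPM was smaller, as Kcnmb4 had 88.3 and 87.7 CPM in EF and 85.1 and 77.6 CPM in noEF. The other beta subunit genes, Kcnmb1, Kcnmb2 and Kcnmb3, had at most 4 counts. The sodium-activated channel gene Kcnt1 had 2.77 and 3.95 CPM in EF and 5.87 and 5.74 CPM in noEF, and at -0.79 (SE 0.29) it missed the threshold (edgeR adjusted p = 0.105). Kcnu1, the sperm channel Slo3, had a mean below 1 CPM (-1.18, SE 0.78).

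Of the inward rectifiers, Kcnj10 was lower and 0 were higher, of 9 tested genes out of 15. Of all tested genes 4.99% were lower and 3.83% higher. Kcnj10 encodes the main inward rectifier of glia, which buffers extracellular potassium (ENSMUSG00000044708, chromosome 1, 172341210 to 172374085, plus strand). It had 44.4 and 45.1 CPM in EF and 55.2 and 65.2 CPM in noEF. The EF libraries were close together and below both noEF libraries, whose distance was larger. The means were 44.7 ± 0.498 and 60.2 ± 7.09 CPM (SD, n = 2 each), a 1.35-fold fall (log2 fold change -0.43, SE 0.11, edgeR adjusted p = 0.0298). This call was lost with scaling by library totals (-0.34, edgeR adjusted p = 0.0648), without EF replicate 1 (-0.42, edgeR adjusted p = 0.143), without EF replicate 2 (-0.44, edgeR adjusted p = 0.0835) and without noEF replicate 2 (-0.31, edgeR adjusted p = 0.141).

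Kcnj16 encodes the subunit that joins Kcnj10 in heteromeric channels of astrocytes and makes them sensitive to pH (ENSMUSG00000051497, chromosome 11, 110968033 to 111027968, plus strand). It was the most abundant inward rectifier gene, and its EF libraries had 122 and 115 CPM and its noEF libraries 133 and 142 CPM. Both EF libraries were lower, but its log2 fold change of -0.22 (SE 0.09) did not pass (edgeR adjusted p = 0.140). Its level per length was 3.65 ± 0.18 times that of Kcnj10 in EF and 3.16 ± 0.228 times in noEF (SD, n = 2 each). The remaining inward rectifier genes, at 2.19 CPM or less, included Kcnj2 (0.69, SE 0.43), Kcnj4 (-0.62, SE 0.60) and the ATP-sensitive channel gene Kcnj11 (-1.15, SE 0.73), and 5 genes, among them the pericyte gene Kcnj8, had no count.

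**Figure D4:**
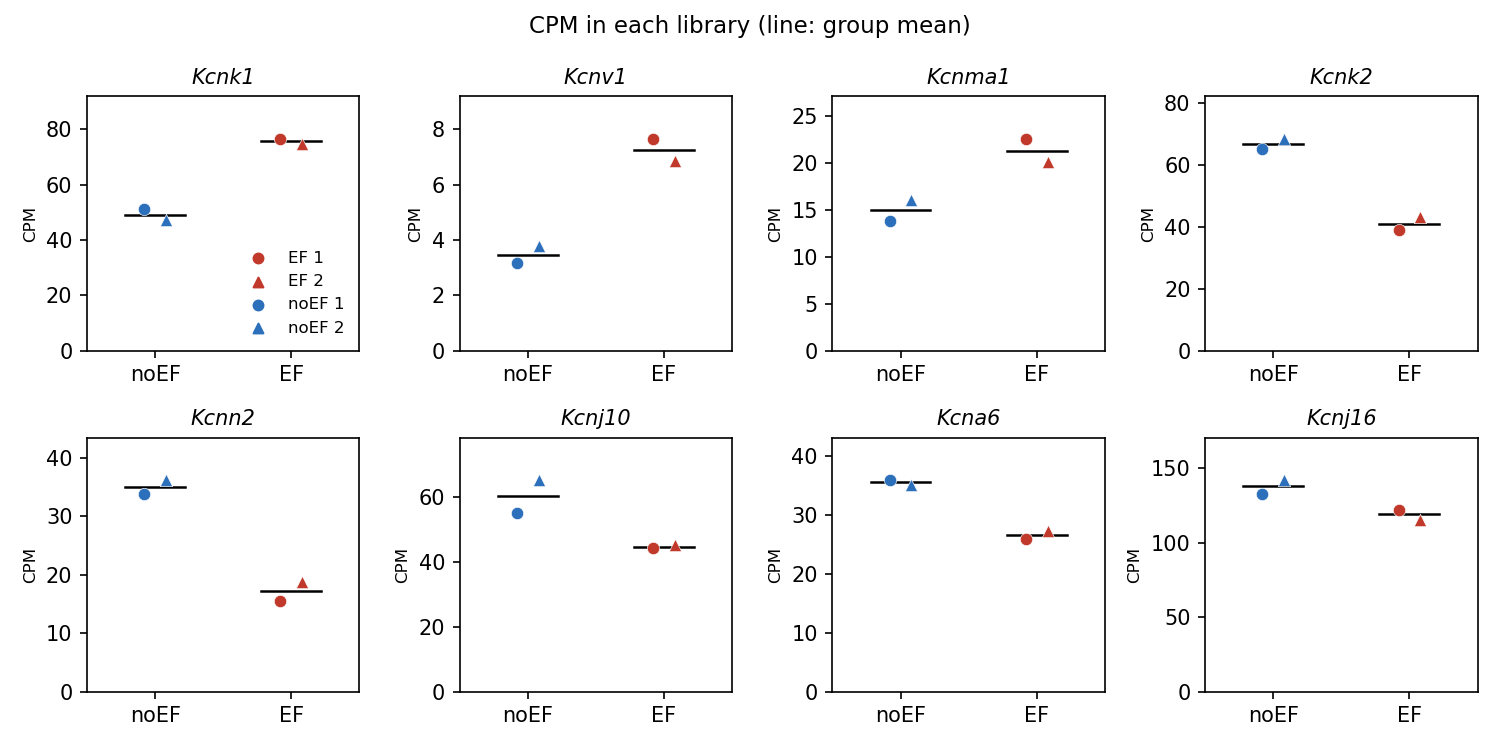
CPM of 8 Kcn genes in each library (circles replicate 1, triangles replicate 2), with a line at the group mean and each vertical axis starting at 0. The 8 genes are those called in at least 1 of the 14 fits, and the groups do not overlap in any panel. Groups without overlap were found for 54.4% of all tested genes. Kcnk1, Kcnv1, Kcnk2, Kcnn2 and Kcnj10 passed the test, and Kcnma1, Kcna6 and Kcnj16 did not.

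Of 12 astrocyte markers, 6 were lower in EF like Kcnj10 (Gfap, Gja1, Aldoc, Aqp4, Sox9 and Atp1b2) and 0 were higher, where 4.99% of all tested genes were lower. The other 6 did not pass: Slc1a3 (0.16), Glul (0.06), Aldh1l1 (0.03), S100b (-0.02), Slc1a2 (-0.08) and Gjb6 (-0.35), each as log2 fold change. The list had summed levels of 8348 to 8359 CPM in EF and 9362 to 9751 CPM in noEF. Their part in the lower Kcnj10 was not tested. In bulk tissue, fewer cells of a type and less RNA per cell cannot be told apart.

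The other marker lists bear on which cells the channels could come from. Of 10 neural stem cell markers, Fabp7 was lower in edgeR and 0 were higher, where 4.99% of all tested genes were lower. DESeq2 called 3 and limma-voom 1. The 4 with an unadjusted edgeR p under 0.05 were Fabp7, Sox2, Vim and Prom1, all lower. Summed levels were 5086 to 5401 CPM in EF and 6473 to 6853 CPM in noEF. None of 10 tested neuron markers passed in edgeR, DESeq2 or limma-voom (2 had an unadjusted p under 0.05), with summed levels of 558 to 587 CPM in EF and 469 to 542 CPM in noEF, most of it Map2, while Slc17a6 and Stmn2 had no count. Of 9 tested oligodendrocyte lineage markers 2 were lower (Gpr17 and Pdgfra) and 0 were higher, where 4.99% of all tested genes were lower. Log2 fold changes were above 0 in 5 of the 9 and below 0 in 4. The list summed to 2458 to 2805 CPM in EF and 2428 to 2579 CPM in noEF. Of 8 microglial markers 6 had no count, and the sum was 3.31 to 4.76 CPM in EF and 6.78 to 6.91 CPM in noEF. Neither tested microglial marker passed in edgeR, DESeq2 or limma-voom (1 had an unadjusted p under 0.05). Among vascular and pericyte markers Cdh5, Anpep and Abcc9 had no count and Cspg4, also an oligodendrocyte progenitor gene, held most of the 76.0 to 84.4 CPM in EF and 72.8 to 77.9 CPM in noEF, and 0 of 5 tested passed in edgeR or DESeq2 (1 in limma-voom, 1 at an unadjusted p under 0.05). Of the fibroblast markers Lum and Postn had no count, and Pdgfra held most of the 26.4 to 30.9 CPM in EF and 35.8 to 45.1 CPM in noEF. Ependymal markers, led by Foxj1, summed to 24.0 to 30.1 CPM in EF and 32.9 to 34 CPM in noEF, and 0 of 3 tested passed in edgeR, DESeq2 or limma-voom (1 at an unadjusted p under 0.05). What part these lists have in the channel differences was not tested. These cultures carried markers of neural stem cells, the cell type on the labels, beside glial ones and a lower sum of neuron markers.

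In the voltage-gated class, Kcnv1 was higher and 0 were lower, of 23 tested genes out of 35. Of all tested genes 3.83% were higher and 4.99% lower. Kcnv1 encodes a silent subunit, which forms no channel alone but alters Kv2 channels when it joins them (ENSMUSG00000022342, chromosome 15, 45106284 to 45114920, minus strand). Its level was 7.65 and 6.85 CPM in EF and 3.16 and 3.78 CPM in noEF. The groups did not overlap, at 7.25 ± 0.565 against 3.47 ± 0.432 CPM (SD, n = 2 each), a 2.09-fold rise (log2 fold change 1.06, SE 0.26, edgeR adjusted p = 0.0206). The call was lost without EF replicate 1 (0.98, edgeR adjusted p = 0.119), without noEF replicate 1 (0.94, edgeR adjusted p = 0.0726), and with a length and GC trend removed together with the replicate block (0.98, edgeR adjusted p = 0.0618).

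Other silent subunit genes, Kcnf1 (0.27, SE 0.25) and Kcng1 (0.52, SE 0.31), did not pass. Kcns1 had 0 and 2 counts in EF and 10 and 15 in noEF. Its summed counts were 13.3-fold higher in noEF (95% exact conditional interval 3.33 to 116), and it did not pass in the fit (edgeR adjusted p = 0.182). The interval holds counting error only. Kcns1 was picked by this contrast, so the interval is no test of it.

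Kv1 channels, the shaker family that sets the firing threshold, were carried by Kcna6 and Kcna2. Kcna6 (ENSMUSG00000038077, chromosome 6, 126708329 to 126740674, minus strand) had 25.9 and 27.3 CPM in EF and 35.9 and 35 CPM in noEF. The replicates were tight and the groups apart, yet its log2 fold change of -0.41 (SE 0.13) missed the threshold (edgeR adjusted p = 0.0543). It passed in 5 of 13 alternatives, among them DESeq2 (adjusted p = 0.0403) and limma-voom (adjusted p = 0.0488). Kcna2 had 47.8 and 50.7 CPM in EF and 54.3 and 45.6 CPM in noEF, with a log2 fold change of -0.02 (SE 0.12). Kcna5, below 1 CPM, was at 0.74 (SE 0.99).

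The A-type and fast delayed rectifier genes held most of the voltage-gated level and did not pass. Kcnd3 and Kcnd2, pores of the rapidly inactivating A-type current, were at 195 ± 0.274 and 54.8 ± 7.15 CPM in EF and at 179 ± 17.8 and 52.4 ± 7.53 CPM without the field (SD, n = 2 each). Their log2 fold changes were 0.12 (SE 0.09) and 0.07 (SE 0.13), the latter within its error of 0, and Kcnd1 of the same family was at -0.18 (SE 0.30). Kcnc1, a Kv3 channel of fast-spiking cells, was at 120 ± 10 CPM with the field and 114 ± 0.577 CPM without it (SD, n = 2 each; 0.07, SE 0.09), and Kcnc4 of the same family was at 0.45 (SE 0.21, edgeR adjusted p = 0.204). In the EAG, ERG and ELK family Kcnh2, the ERG channel of the heart, was highest at 5.51 CPM (0.15, SE 0.26), and Kcnh5 was at -0.78 (SE 0.73). Exons of Kcnh7 overlap those of Gca on the opposite strand. Of the Kv7 genes, which carry the M-current that restrains repetitive firing, 4 of 5 were tested. In edgeR, DESeq2 or limma-voom 0 of these were called, and 0 had an unadjusted p under 0.05. In edgeR 8.82% of all tested genes were called, so 0 of 4 does not set them apart.

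None of the 9 tested accessory genes passed in edgeR, DESeq2 or limma-voom, and 0 had an unadjusted p under 0.05. In edgeR 8.82% of all tested genes were called, so 0 of 9 does not set the class apart. Kcnip3, also known as DREAM or calsenilin, a calcium-binding partner of A-type channels that also acts in transcription, was the most abundant Kcn gene. Its EF libraries had 202 and 186 CPM and its noEF libraries 194 and 182 CPM. Its groups overlapped (log2 fold change 0.05, SE 0.09). Kcnip1, of the same family, had 15.1 and 17.3 CPM in EF and 14.2 and 11.9 CPM in noEF (0.32, SE 0.17, edgeR adjusted p = 0.291). Kcnip4 was below 1 CPM (-1.19, SE 1.15), and its exons overlap those of 5730480H06Rik on the opposite strand. The beta subunit gene Kcnab2 was at 0.39 (SE 0.20), and Kcne1l, an X-linked gene of the KCNE family, at 0.83 (SE 0.41). Kcnrg, outside the accessory class, was at 0.07 (SE 0.97).

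A few genes were counted almost only in 1 group, all at low counts. They were picked by that contrast, so their ratios and intervals are no test of it. The intervals hold counting error only. The rule behind the picks, at most 3 counts summed over 1 group and more over the other, also took in Kcna1, Kcnh3 and Kcnmb3. Kcna1 had 3 counts in EF and 4 in noEF. Intervals of these genes (0.241 to 9.71, 0.422 to 210 and 0.503 to 28.5, in that order) included equal levels. Kcne2 had no count in EF and 11 and 6 counts in noEF. With EF set to a floor of 3 counts over the group, it was 6.04-fold lower in EF. That ratio takes the noEF counts as exact, so it is not a lower bound. Kcna3 had 3 and 3 counts in EF and none in noEF, 1.87-fold higher by the same floor. Neither passed the filter. Kcnk6, a two-pore gene, had 2 and 6 counts in EF and none in noEF, 2.50-fold higher by that floor. Kcnj13, a channel of ion-transporting epithelia, had 0 and 3 counts in EF and 12 and 22 in noEF, and its summed counts were 12.1-fold higher in noEF (95% exact conditional interval 3.80 to 61.5; edgeR adjusted p = 0.143). Its exons overlap those of Gigyf2 on the opposite strand. Kcnj3, a subunit of G protein-gated channels, had 20 counts in noEF, 18 of them in 1 library, against 2 in EF. The summed counts of Kcne4 were 17 in EF and 3 in noEF, a ratio of 5.31 (95% exact conditional interval 1.54 to 28.3).

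Genes that work with potassium channels without being channels of this name were followed in a list of 42, of which 33 were tested. Of these 3 were higher and 2 lower in EF, against 8.82% called among all tested genes. Dpp6, a transmembrane partner of A-type channels, had 63.5 and 65.5 CPM in EF and 45.7 and 52.2 CPM in noEF (log2 fold change 0.40, SE 0.11, edgeR adjusted p = 0.0314). The groups did not overlap.

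Of the transporters that move potassium, the potassium chloride cotransporter gene Slc12a7 was higher (0.59, SE 0.16, edgeR adjusted p = 0.0331), and the glial pump subunit Atp1b2 was lower (-0.34, SE 0.09, edgeR adjusted p = 0.0271). The calls of Dpp6, Slc12a7 and Atp1b2 were lost without EF replicate 1 (edgeR adjusted p = 0.118, 0.141 and 0.423), where the log2 fold changes were 0.42, 0.57 and -0.22. They were also lost with the replicate block (edgeR adjusted p = 0.0522, 0.0522 and 0.0531), and with that block and the length and GC trend removed (0.0960, 0.0981 and 0.0626). The call of Atp1b2 was lost with library totals too (-0.26, edgeR adjusted p = 0.0682), and those of Dpp6 and Slc12a7 were lost without EF replicate 2 (0.129 and 0.0649) or noEF replicate 1 (0.167 and 0.107). The sulfonylurea receptor genes Abcc8 and Abcc9, partners of ATP-sensitive channels, had no count.

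The 3 genes Kcnk1, Kcnk2 and Kcnn2 passed in all 13 alternatives, with log2 fold changes of 0.56 to 0.73, -0.77 to -0.61 and -1.17 to -0.90. Kcnv1 passed in 10 of 13 and Kcnj10 in 9 of 13, each with its direction kept in all.

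**Figure D5:**
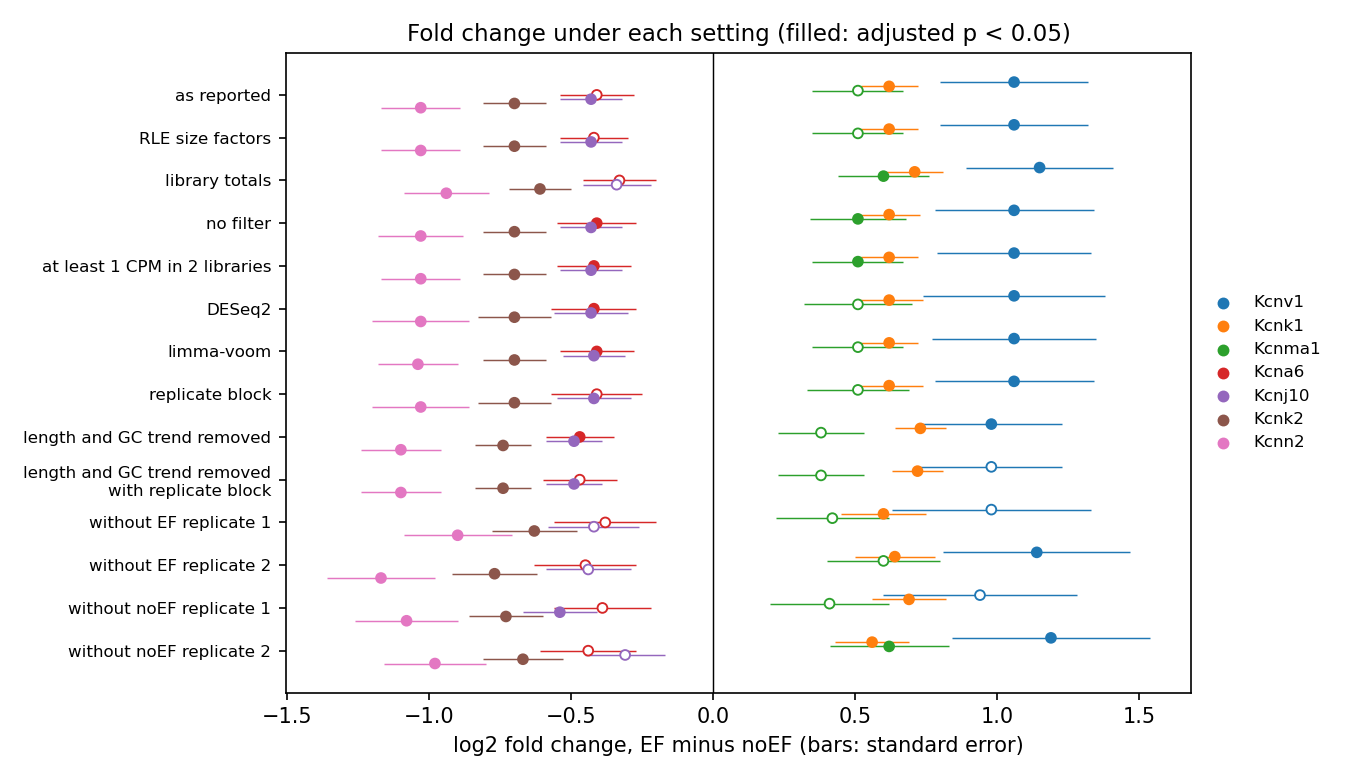
Log2 fold change (EF minus noEF, bars standard error) of 7 Kcn genes under the reported fit and 13 alternatives; filled points have an adjusted p under 0.05 and open points do not. Kcnk1, Kcnk2 and Kcnn2 are filled in every line, while Kcnj10, Kcnv1, Kcnma1 and Kcna6 change between filled and open without crossing 0.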

How the data were processed

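The values the authors deposited are unscaled counts of reads for every gene and library, judged from the whole numbers and differing totals. The submitters' processing notes name GRCm38 as build and, with no role or order, the tools DESeq2 1.44.0, StringTie 2.2.1 and HISAT2 2.0.4. How reads were assigned to genes and whether strand was used is not given in the sources used here. Per the labels' protocols, polyadenylated RNA was fragmented and copied from random hexamers, with no step named that keeps the strand. Total counts ran from 33748880 to 34554537 per library. Only 57 to 76 genes of a library had 1 count, while 239 to 294 had 2, so intervals from low counts may be too narrow. Libraries of a group differed by more than sampling noise (chi-square 17.4 and 18.3 times its degrees of freedom).

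Computed here: edgeR 4.0.16 in R 4.3.3, filterByExpr (minimum count 10, minimum total 15), TMM scaling and the quasi-likelihood F test with robust dispersion, adjusted over 14263 genes at 0.05. The standard error is the log2 fold change over the square root of F. CPM values use TMM-scaled library sizes, and RPKM divides them by the union of exons of GENCODE M21, which held 22022 of the identifiers. Alternatives were RLE factors, library totals, no filter, 1 CPM in 2 libraries, DESeq2 1.42.0, limma-voom (limma 3.58.1), the replicate block, removal of each library's trend on length and GC content (mgcv 1.9.3), that with the block, and each library left out. The fit was also run on simulated counts, with changes given only to well-counted genes, so that run does not cover genes with low counts. Genes are named by rule: called genes, in each family the highest level and the largest change, the 10 highest levels, those with 1 group at 0, and called partner genes. Further genes were added after their values were seen. Some genes of the rule and 1 sequence are not reported here. Members and lists were chosen with earlier results of these data known.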

Additional observations from a re-analysis of the deposited data

How the results depend on the processing

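Over all genes the call count went from 1258 to 2118 without a filter, to 664 with the length and GC trend removed with the replicate block, and to between 554 and 1855 when a library was left out (554 without EF replicate 1). With library totals the split of all calls turned from 546 higher and 712 lower to 1138 higher and 505 lower, and that of the Kcn calls from 2 and 3 to 3 and 2. The Kcn call count of 5 ran from 3 (without EF replicate 1, where Kcnk1, Kcnk2 and Kcnn2 remained) to 5 when a library was left out, and from 4 to 7 otherwise. The 5 calls among partner and transport genes became 2 with the replicate block, 9 with the length and GC trend removed, 2 with both, and 2 to 5 when a library was left out. The reported fit took no pairs. By library name, replicate 2 of EF does not carry the same number as replicate 2 of noEF. Deviations from the group mean were correlated at -0.0898 for same-numbered libraries and at 0.0898 for crossed ones. With 2 libraries per group these values mirror each other by construction, so they cannot decide whether the numbers are pairs. With the replicate block 978 genes were called over all and 5 Kcn genes, the same 5. With CPM in place of RPKM the class shares moved to 41.0% for voltage-gated, 1.83% for Kv7, 15.4% for inward rectifier, 11.6% for two-pore, 5.00% for calcium- and sodium-activated and 25.2% for accessory genes, while RLE factors and library totals leave shares as they are by construction. Signs turned only among genes that were not called: Kcnd2 was at -0.02 with the length and GC trend removed, with and without the replicate block. With a library left out Kcnd2 ran from -0.07 to 0.22, Kcnip3 from -0.01 to 0.11, Kcnrg from -0.67 to 1.67, Kcnh2 from -0.09 to 0.36 and Kcnc1 from -0.02 to 0.15. Where a library was left out, the lone library of its group was assumed to vary like the other group. Depth limits the genes below 10 CPM, whose median standard error was 0.60.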

Other observations

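Kcn genes that lie next to one another in the genome differed widely in level. With gaps of at most 200000 bases, 8 sets of neighbours held 18 genes, and in the 5 sets with a gene of at least 10 CPM a single gene held 95.7% or more of the summed RPKM. On chromosome 6 Kcna6 held 97.1% of the level of its set, beside Kcna5 (2.65%) and Kcna1 (0.203%), all on the minus strand within 208124 bases. On chromosome 3 Kcna2 held 95.7%, beside Kcna10 (3.80%) and Kcna3 (0.513%). On chromosome 1 Kcnj10 held 97.1% beside Kcnj9, on chromosome 11 Kcnj16 held 98.8% beside Kcnj2, and also on chromosome 11 Kcnip1 was at 14.6 CPM while Kcnmb1, which lies within its span on the other strand, had no count. Kcnj5 and Kcnj1, neighbours on chromosome 9, had no count at all. These levels describe 4 libraries of 1 culture type, and no test was made.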
